A study of Mus musculus with 2 samples.

Results

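Imprinted genes carry a parent-of-origin mark and are read mainly from the maternal or the paternal chromosome. The 8 genes described here are Meg3, Rian, Peg3, Peg10, Ndn, Snrpn, Nnat and Magel2, which were taken as a group by name, and 7 of them had a row among the 28692 genes of the tables. Rian was not analysed here. Their unique molecular identifier (UMI) counts were followed through neuron classes, glia and free RNA of the mouse habenula, a paired structure of the epithalamus with a lateral part (LHb) and a medial part (MHb).

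The study profiled single cells of the habenula by droplet RNA sequencing of transcript 3' ends from male C57BL/6 adults, 50 to 55 days old. It yielded 2 libraries, each made from the pooled habenula punches of 4 mice. In the foot shock group, mice were given 30 shocks (0.3 mA, 1 s each) within 60 min, after visits of 10 min per day to the shock chamber on 7 days, and were perfused straight after the session. Control mice came from the home cage, without chamber visits. No transgene or mutation is named for either group. Both groups were handled daily, and in both the tissue was kept in solutions with the transcription inhibitor actinomycin, the translation inhibitor anisomycin (spelled anysomycin in the labels), and the blockers TTX, APV and DNQX, digested with pronase and freed of dead cells. With 1 library per group there are no replicates, so no test compared the groups, and all intervals (95%) cover counting error only.

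Imprinted genes lie in clusters whose allele of expression is set by differentially methylated control regions, and many of them are transcribed strongly in the brain. Meg3 is a maternally expressed long noncoding RNA of the Dlk1-Dio3 domain, found largely in the nucleus. Peg3, a zinc finger protein, and Peg10, a gene derived from a retrotransposon, are paternally expressed. Ndn (necdin) and Magel2, which encode MAGE family proteins, and Snrpn, which encodes the spliceosomal protein SmN, are paternally expressed genes of the domain whose human counterpart is lost in Prader-Willi syndrome. Nnat (neuronatin) is a paternally expressed gene for a small membrane protein and lies within an intron of Blcap.

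In mm10 coordinates (GENCODE vM21), Meg3 (ENSMUSG00000021268) lies at chr12:109541001-109571726 on the plus strand, and Nnat (ENSMUSG00000067786) at chr2:157560078-157562522 on the plus strand, opposite to Blcap. Peg3 (ENSMUSG00000002265) lies at chr7:6703892-6730431 on the minus strand, and its start is 147 bases from that of Usp29, a paternally expressed gene on the other strand. Peg10 (ENSMUSG00000092035) lies at chr6:4747306-4760517 on the plus strand, 99 bases from the start of Sgce. Ndn (ENSMUSG00000033585, chr7:62346569-62350262) and Magel2 (ENSMUSG00000056972, chr7:62377010-62381640) share the plus strand, with 30441 bases between their starts. Snrpn (ENSMUSG00000102252) lies at chr7:59982495-60140219 on the minus strand and overlaps Snurf and Gm38393 on the same strand, so its count is uncertain where reads could belong to either. Snurf was listed with 0 UMIs in habenula neurons of both libraries.

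RefSeq promoter windows were matched for 7 of the 8 members, 11 windows in all, and those 4 in which a searched motif was found are shown, for Meg3, Peg3, Ndn and Nnat. The other 7, of Magel2, Rian, a second Meg3 start and 4 Snrpn starts, held none of the motifs. The windows are 300 bases of GRCm38.p6 from RefSeq, 250 before to 50 after a RefSeq start, written 5′ to 3′ on the gene's own strand. Capitals mark matches to TGACGTCA, the cyclic AMP response element (CRE), in Meg3 and Peg3, and to GCATGCGC, the NRF1 motif, in Ndn and Nnat, both searched on both strands. The windows are chr12:109540746-109541045 (plus) for Meg3, chr7:6730370-6730669 (minus) for Peg3, chr7:62348027-62348326 (plus) for Ndn and chr2:157559828-157560127 (plus) for Nnat.

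Meg3: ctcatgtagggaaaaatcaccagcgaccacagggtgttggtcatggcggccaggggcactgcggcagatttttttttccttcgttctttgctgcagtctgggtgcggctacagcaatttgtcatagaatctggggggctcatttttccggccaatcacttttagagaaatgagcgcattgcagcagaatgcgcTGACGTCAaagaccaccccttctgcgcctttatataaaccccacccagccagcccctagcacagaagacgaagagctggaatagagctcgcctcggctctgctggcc
Peg3: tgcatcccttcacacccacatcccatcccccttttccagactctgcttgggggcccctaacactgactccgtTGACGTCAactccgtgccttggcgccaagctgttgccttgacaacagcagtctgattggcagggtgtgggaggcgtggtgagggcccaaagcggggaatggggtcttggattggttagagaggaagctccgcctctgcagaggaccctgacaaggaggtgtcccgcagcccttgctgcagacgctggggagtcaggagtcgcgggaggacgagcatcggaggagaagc
Ndn: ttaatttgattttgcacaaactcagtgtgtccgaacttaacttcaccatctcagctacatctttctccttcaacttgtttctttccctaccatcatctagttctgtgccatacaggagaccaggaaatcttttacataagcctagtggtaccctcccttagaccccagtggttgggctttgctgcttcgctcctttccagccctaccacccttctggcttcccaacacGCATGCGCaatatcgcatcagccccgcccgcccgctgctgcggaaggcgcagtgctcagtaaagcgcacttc
Nnat: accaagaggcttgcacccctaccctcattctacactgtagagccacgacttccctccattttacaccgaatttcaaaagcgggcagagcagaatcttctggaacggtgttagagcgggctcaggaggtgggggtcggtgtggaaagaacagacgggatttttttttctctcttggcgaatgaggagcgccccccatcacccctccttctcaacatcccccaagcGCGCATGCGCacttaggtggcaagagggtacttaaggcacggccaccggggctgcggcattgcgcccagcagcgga

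The CRE match began at position -57 of Meg3 and -178 of Peg3, counted from the start. The Peg3 site also lies in the Usp29 window, at position 8 counted from the Usp29 start. The NRF1 match began at -22 in Ndn, and in Nnat 2 overlapping matches on opposite strands began at -26 and -24. Of 32544 RefSeq promoter windows of the same length, 1.80% held the CRE letters and 2.73% the NRF1 letters. A YY1 motif (GCCATNTT) was searched too and occurred in 6.08% of all windows. No window of a member with a RefSeq entry held it. Such a match is a description of the letters only.

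The foot shock library held 22189951 UMIs and the control library 23095501. After filters, 4680 foot shock cells (median 2690.5 UMIs) and 4873 control cells (median 2417 UMIs) were used, and 32 cell barcodes occurred in both libraries. LHb-like neurons numbered 755 and 782, MHb-like neurons 1620 and 1210, and oligodendrocyte-like cells 827 and 1080. Clusters of keratin epithelial-like cells (503) and fibroblast-like cells (45) occurred in the foot shock library alone, and the fibroblast-like cells held Xist at 1158 CPM, UMIs scaled to a class total of 1000000, although the labels name male mice. The 6 neuron markers (Snap25, Rbfox3, Syt1, Stmn2, Tubb3 and Pou4f1, the last a transcription factor of habenula neurons) summed to 3434 CPM in foot shock habenula neurons and 3530.0 CPM in control habenula neurons. Free RNA, the sum of barcodes with 10 to 100 UMIs, held them at 1866 and 2195 CPM.

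Meg3 was far higher in habenula neurons (LHb-like and MHb-like together) than in mature oligodendrocytes in both libraries. It stood at 14247 CPM in foot shock habenula neurons, against 457 CPM in foot shock oligodendrocyte-like cells, a ratio of 31.2 (29.0 to 33.5). In the control library it stood at 14648 CPM in habenula neurons, against 239.6 CPM in oligodendrocyte-like cells, a ratio of 61.1 (56.3 to 66.5). These intervals hold counting error alone, and the ratios depended on the cells compared. With astrocyte-like cells in place of oligodendrocyte-like cells they were 8.51 in foot shock and 31 in control, with a minimum of 2000 UMIs per cell 17.1 and 27.3, with a minimum of 500 UMIs 76.2 and 79.7, and with the estimated free RNA subtracted 54.1 and 109. The gap between both ratios lay mostly on the oligodendrocyte side, where the foot shock level was 1.91 times the control level, and this is taken up with the other glia below.

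Nnat and the MAGE gene Ndn followed. Nnat stood at 1342 CPM in foot shock habenula neurons and 75.3 CPM in oligodendrocyte-like cells of that library, a ratio of 17.8 (14.9 to 21.4), and the control ratio was 22.5 (19 to 26.8). Against astrocyte-like cells, which held Nnat at 627 and 379 CPM, the Nnat ratios were 2.14 and 3.47, and with the estimated free RNA subtracted no Nnat UMIs were left in oligodendrocyte-like cells for a ratio. The Ndn ratios were 7.97 (6.00 to 10.8) in foot shock and 8.19 (6.36 to 10.7) in control, and those of Peg3 6.06 (5.06 to 7.32) and 7.12 (6.07 to 8.41). Peg10 had 5.98 and 4.74, from 6 and 18 UMIs in the oligodendrocyte-like cells. The smallest were those of Snrpn, at 3.67 (3.34 to 4.03) and 3.66 (3.37 to 3.97).

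All 6 members with at least 100 UMIs in the compared cells were 2-fold or more higher in habenula neurons in both libraries, where 37.3% of all 10817 genes measured so were called in that direction and 9.56% in the other. Magel2 was below that minimum, with 1 UMI in foot shock and 0 UMIs in control oligodendrocyte-like cells, and that count of 0 allows up to 1.27 CPM (3 counts), with 1.56 CPM as the upper end of the exact interval. The median log2 ratio was 3.00 for the 6 members and 0.75 for all genes. Genes that neurons use broadly had ratios from 2.05 to 33.2, with the vesicle fusion protein Snap25 at 12.6 and 13.1, the calcium sensor Syt1 at 24.8 and 32.5, and the tubulin Tubb3 at 2.05 and 2.27. Snrpb, the paralog of Snrpn that most cells use, had ratios of 1.33 (1.04 to 1.73) in foot shock and 1.18 (0.954 to 1.46) in control.

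Most other imprinted genes of the members' domains were also higher in neurons, with 6 of the 7 measured called so. The exception was Sgce, beside Peg10, at 0.791 in foot shock and 0.597 in control. Of a list of 42 other imprinted genes with a row, from these and other domains, 26 were measured in this comparison, of which 17 were called higher and 1 lower, with a median log2 ratio of 1.63. The lower gene was Plagl1, a zinc finger protein, at 0.260 in foot shock and 0.162 in control. Mirg, a noncoding RNA downstream of Meg3, had 25.5 and 48.1, and Usp29 had 23.7 and 25.0. Zim1 had 12 and 21.2, and Ppp1r9a 2.28 and 2.10. Blcap, the host of Nnat, had 6.04 and 7.26, and Ube3a, a maternally expressed ubiquitin ligase in neurons, had 4.45 and 4.53. The signalling adaptor Grb10, among the 5 most abundant of the remaining list in habenula neurons, had 24.8 and 26.7.

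**Figure D1:**
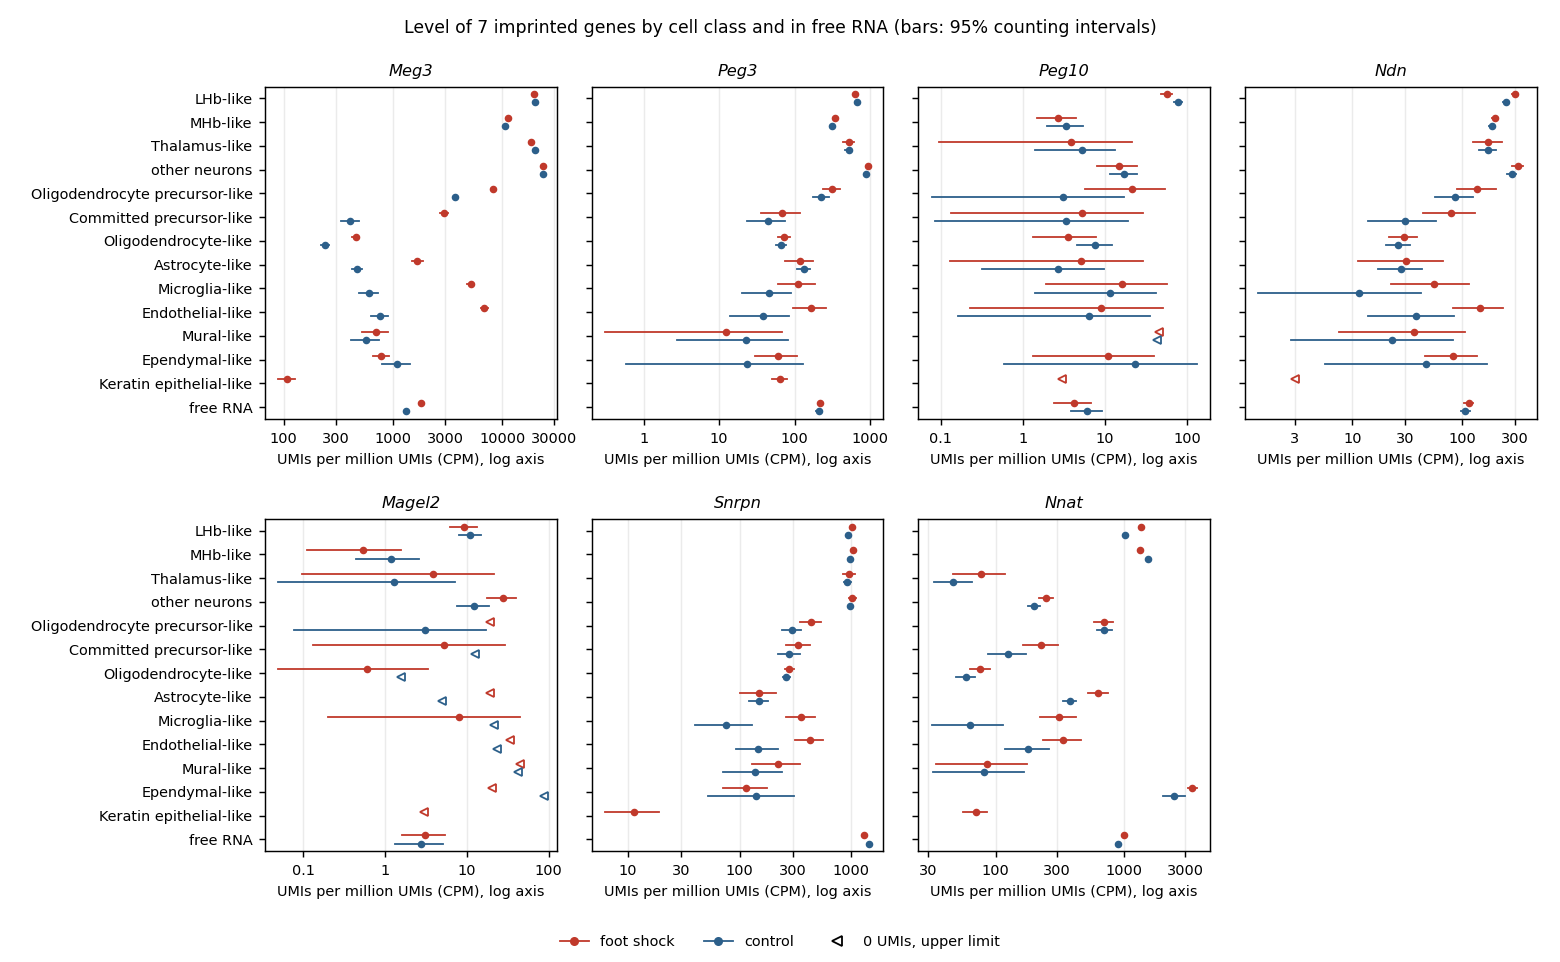
Level of each member in CPM (log axis) by cell class and in free RNA, foot shock points above control points, with exact Poisson 95% intervals and open triangles for the upper limit where a class held 0 UMIs. Meg3 stands above 10000 CPM in every neuron class of both libraries, and Nnat stands at 76.2 and 46.9 CPM in thalamus-like neurons against 3404 and 2461 CPM in ependymal-like cells.

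Against free RNA the members separated. Meg3 in habenula neurons was 7.96 (7.77 to 8.16) times its free RNA level in foot shock and 11.1 (10.8 to 11.4) times in control. Peg10 had 5.17 and 5.91, Peg3 2.01 and 2.24, and Ndn 2.04 and 2.01. These 4 of the 7 members were 2-fold or more higher in both libraries, where 22.7% of 11108 genes were called higher and 6.2% lower. Peg3 and Ndn were just above the limit, and their lowest bounds of 1.87 and 1.80 were under it.

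Nnat, at 1.33 and 1.47, and Snrpn, at 0.790 (0.763 to 0.818) and 0.667 (0.644 to 0.690), did not reach it. Snrpn stood at 1027 CPM in foot shock habenula neurons and 1301 CPM in foot shock free RNA, and at 962 CPM in control habenula neurons and 1443 CPM in control free RNA, so it was lower in the neurons than in free RNA of either library. The Snrpn level of oligodendrocyte-like cells, at 280.3 and 263 CPM, and of keratin epithelial-like cells, at 11.4 CPM, was well under that of free RNA. The number of Meg3 UMIs per Snap25 UMI was 15.5 in foot shock neurons against 2.51 in foot shock free RNA, and 16.2 in control neurons against 1.56 in control free RNA. The number of Snrpn UMIs per Snrpb UMI hardly differed, at 17.7 in neurons and 17.2 in free RNA of the foot shock library, and 17.9 in neurons and 17.5 in free RNA of the control library.

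**Figure D2:**
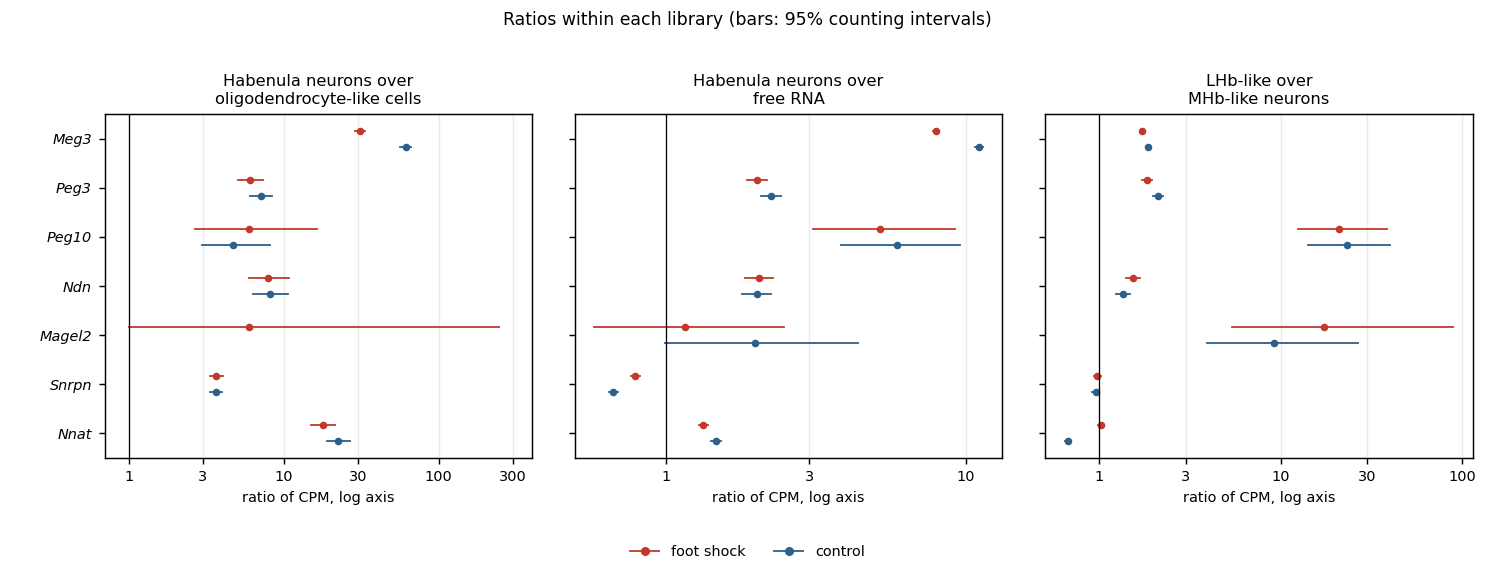
Ratio of CPM (log axis) of each member within a library, for habenula neurons over oligodendrocyte-like cells (left), habenula neurons over free RNA (middle) and LHb-like over MHb-like neurons (right), with exact conditional binomial 95% intervals and foot shock points above control points; Magel2 has no control point on the left, where oligodendrocyte-like cells held 0 UMIs. Peg10 has the highest LHb-like over MHb-like ratios in both libraries, 21 and 23.1, and Snrpn lies below 1 against free RNA.

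Between the habenula neuron classes, Peg10 had the highest LHb-like over MHb-like ratio of the members. It stood at 56.3 CPM (48.2 to 65.4) in foot shock LHb-like neurons and 2.68 CPM (1.5 to 4.41) in foot shock MHb-like neurons, a ratio of 21 (12.4 to 38.4). In control it stood at 78.0 CPM (69.5 to 87.3) in LHb-like neurons and 3.38 CPM (1.97 to 5.41) in MHb-like neurons, a ratio of 23.1 (14.2 to 40.1). The MHb-like level did not exceed the free RNA level of 4.15 CPM in foot shock and 6.10 CPM in control.

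Meg3 and Peg3 were also higher in LHb-like neurons. In foot shock, Meg3 stood at 19572 CPM in the lateral and 11380 CPM in the medial class, a ratio of 1.72 (1.70 to 1.74), and the control ratio was 1.86 (1.84 to 1.88). Peg3 stood at 628 and 342 CPM in the foot shock library, a ratio of 1.83 (1.72 to 1.95), and at 665 and 317 CPM in the control library, a ratio of 2.10 (1.97 to 2.23). With Peg10, 3 of the 6 measured members were 1.5-fold or more higher in LHb-like neurons in both libraries, where 14.2% of 10264 genes were called so and 7.55% in the other direction.

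Ndn was just above the limit in foot shock, at 1.52 (1.39 to 1.66), and under it in control, at 1.35 (1.23 to 1.48). Snrpn was close to even, at 0.974 (0.932 to 1.02) in foot shock and 0.956 (0.916 to 0.998) in control. The Nnat ratio was 1.01 (0.976 to 1.05) in foot shock and 0.667 (0.642 to 0.693) in control. Only the control library thus held a difference between the classes beyond counting error. Magel2 was not measured at the required depth, with 28 LHb-like and 3 MHb-like UMIs in foot shock and 43 LHb-like and 6 MHb-like UMIs in control, which gave ratios of 17.3 (5.35 to 89.1) and 9.22 (3.91 to 26.5).

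Of 25 other imprinted genes measured between the classes, 10 were called higher in LHb-like neurons and 1 lower, and their median log2 ratio was 0.55, against 0.84 for the members and 0.13 for all genes. Nap1l5, a histone chaperone of the nucleosome assembly family, had 10.4 in foot shock and 9.10 in control, and Zim1, a maternally expressed zinc finger gene beside Peg3, had 7.74 and 6.63. Of the neighbours of Peg10, the sarcoglycan Sgce had 1.83 and 1.52 and the actin-binding protein Ppp1r9a 1.82 and 1.98. Impact, a regulator of the Gcn2 kinase, had 1.55 and 1.58. Usp29, which shares its promoter region with Peg3, stayed under the limit at 1.46 and 1.47, as did Mirg in foot shock, at 1.40 against 1.75 in control. Gnas, which encodes a stimulatory G protein subunit, had 1.44 and 1.41, and the noncoding RNA Kcnq1ot1 had 1.2 and 1.3. Mest, a hydrolase-like gene, was the gene called lower, at 0.628 and 0.615. Dlk1, Rtl1, Dio3, Asb4, Mkrn3 and Peg12, also neighbours of members, had too few UMIs for this comparison.

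In neurons outside the habenula classes, 2 groups could be set beside these levels. Thalamus-like neurons (57 foot shock and 131 control cells) held Meg3 at 18458 and 20012 CPM and Snrpn at 953 and 924 CPM. Nnat was at 76.2 CPM (46.6 to 118) and 46.9 CPM (32.9 to 65.0) there, below its free RNA level of 1006 and 892 CPM. Other neurons, with Pou4f1 below the limit for a habenula name, held the highest Meg3 level of any class, at 23548 and 23519 CPM, with Peg3 at 941 and 890 CPM and Nnat at 247 and 200.1 CPM. Magel2 was at 27.3 CPM (17.9 to 40.0) and 12.2 CPM (7.48 to 18.9) in them.

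Among subclusters of habenula neurons, which were made without the imprinted genes, Peg10 and Nnat had a clear peak. A subcluster was described when each library gave it at least 20 cells, which left 10 of LHb-like and 8 of MHb-like neurons. Peg10 was highest in LHb subcluster 2 (led by Wif1, Cartpt and Gng8), at 242 CPM in foot shock and 341 CPM in control, where the median over the LHb subclusters was 7.54 and 12 CPM. This subcluster held 60.0% (52.2 to 67.4%) of the foot shock and 55.4% (49.6 to 61.1%) of the control Peg10 UMIs of the class, in 14.8% and 14.3% of its cells. Among the described LHb subclusters, subcluster 7 (Abhd2, Pam and Hsf2) followed in both libraries, at 131 and 154 CPM. LHb subcluster 1 (Sv2c, Chrm2 and Nfib) had 34.8 and 91.3 CPM. In each of the other described LHb subclusters Peg10 was at or below 33.5 CPM. LHb subcluster 10 (Trhde, Gpr22 and Nr2f1), which was not described because it had 17 control cells, held 20 of 170 foot shock (11.8%) and 14 of 305 control Peg10 UMIs (4.59%) in 50 and 17 cells. It was left out of this ranking, so the order after LHb subcluster 2 holds for the described subclusters only.

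Nnat was highest in LHb subcluster 5, which is led by the neuropeptide gene Sst with Mctp1 and Npr1. It stood there at 4081 CPM in foot shock and 3853 CPM in control, where the subcluster median was 1110 and 960.0 CPM and the lowest value, in LHb subcluster 1, was 395 and 299 CPM. In MHb-like neurons Nnat was highest in MHb subcluster 8 (Lmo1, Wscd1 and Igfbp5), at 3105 and 3042 CPM, with MHb subcluster 1 (Sema3d, Spon1 and Kcnmb4os2) at 2668 and 2926 CPM. The lowest was MHb subcluster 3 (Fgf1, Syndig1l and 2600014E21Rik), at 239.5 and 220.3 CPM. Highest and lowest subcluster thus differed 10.3 and 12.9 times among LHb-like and 13 and 13.8 times among MHb-like neurons.

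Peg10 and Nnat were the members for which the same subcluster was highest in both libraries and 2-fold or more above the median, and for Nnat this held in both classes. Of genes that were not used for clustering, 4.23% met this among LHb subclusters and 2.75% among MHb subclusters. Snrpn was the flattest member, with a highest over lowest ratio of 1.30 and 1.38 among LHb subclusters and 1.31 and 1.30 among MHb subclusters. Meg3 ran in LHb subclusters between 13085 and 28671 CPM in foot shock and between 12734 and 27644 CPM in control, lowest in subcluster 1 in both libraries. In MHb subclusters Meg3 was highest in subcluster 5 (Cck, 6330403A02Rik and Adcyap1), at 16085 and 15381 CPM, where the median was 10881 and 9649 CPM. Peg3 was highest in LHb subcluster 8 in foot shock, at 970.2 CPM, and in LHb subcluster 3 in control, at 1067 CPM, and Ndn in LHb subcluster 4, at 424 CPM, and in LHb subcluster 9, at 381 CPM.

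**Figure D3:**
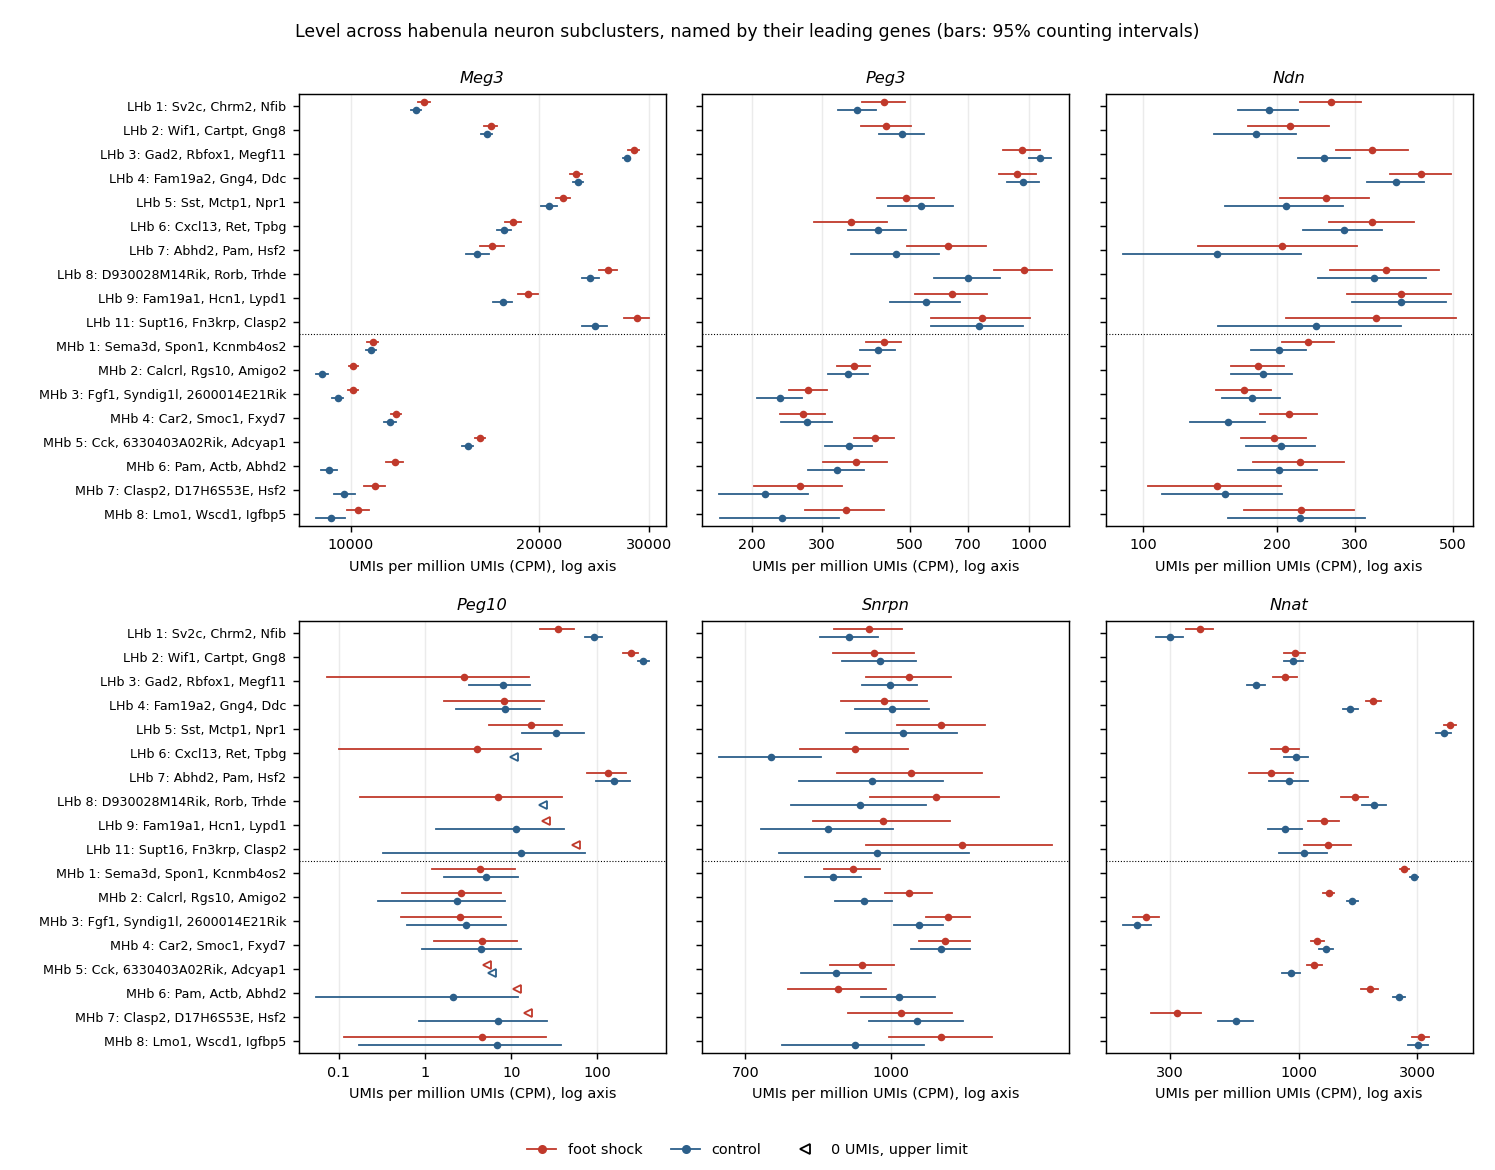
Level in CPM (log axis) of 6 members, without Magel2, by habenula neuron subcluster, with exact Poisson 95% intervals, foot shock points above control points and open triangles for the upper limit where a subcluster held 0 UMIs. Nnat peaks in LHb subcluster 5 at 4081 and 3853 CPM and in MHb subcluster 8 at 3105 and 3042 CPM, and Peg10 in LHb subcluster 2 at 242 and 341 CPM.

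Across the 18 subclusters the members did not share 1 profile. As a description over points that share libraries and class, the Pearson correlation of Meg3 with Peg3 was 0.86 in foot shock and 0.91 in control, and that of Ndn with its neighbour Magel2 0.90 and 0.83. Magel2 values rest on few UMIs, at most 7 in a foot shock and 13 in a control subcluster. With Meg3, of another domain, Magel2 had 0.80 and 0.77. Peg3 with Usp29 had 0.81 and 0.75, and Meg3 with Mirg 0.67 and 0.79. Pairs from different domains reached similar values, with 0.79 and 0.72 for Peg3 with Ube3a and 0.77 and 0.64 for Meg3 with Usp29. Other neighbours correlated little, with 0.33 and -0.17 for Snrpn with Ube3a and 0.13 and 0.35 for Peg10 with Sgce. Nnat correlated little with its host Blcap, at 0.23 and 0.17, or with Meg3, at 0.23 and 0.04. Over 57 class and subcluster profiles of both libraries, the genes most like each member by Pearson correlation of log2(CPM + 10), among 7917, were often no imprinted genes. Meg3 was most like Zwint (0.958), Scn2a1 (0.953) and Ndn (0.949), and Peg3 was most like Cbarp (0.943), Impact (0.928) and Chd3os (0.926). Ndn had Meg3 (0.949) and Zwint (0.938) among its closest genes, and Snrpn had Tspyl4 (0.964), Map7d2 (0.962) and Rufy3 (0.949). Nnat was most like Slit2 (0.864), Irx2 (0.783) and Gpr85 (0.778). Magel2, from few UMIs, was most like Rasgrf2 (0.819), Kcnc1 (0.818) and Cacna1b (0.800). For Peg10 the closest gene, Klhl4, reached 0.681, followed by Tmem255a (0.652) and Rnf149 (0.596).

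Within single cells, Meg3 was close to universal in habenula neurons. It made up a median of 1.91% of the UMIs of a foot shock LHb-like neuron and 1.86% of a control one, with an interval from the tenth to the ninetieth percentile of cells of 1.06 to 3.06% and 1.04 to 3.24%. In MHb-like neurons the median was 1.08% and 0.999%. With each cell thinned to 1000 UMIs, Meg3 was seen in 99.9% of foot shock and 99.98% of control LHb-like neurons, against 13.3% and 12% of oligodendrocyte-like cells, whose median depth was 1845 and 2067 UMIs. Median depth was 3915 and 4852 UMIs in LHb-like and 3464 and 4228.5 UMIs in MHb-like neurons.

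Nnat was patchier. After thinning it was seen in 59.5% of foot shock and 50.7% of control LHb-like neurons. Among MHb-like neurons the shares were 60.4% and 63.6%, and among oligodendrocyte-like cells 7.11% and 5.83%. Nnat stood at 75.3 and 58.3 CPM in oligodendrocyte-like cells and at 1006 and 892 CPM in free RNA. The estimated free RNA shares of oligodendrocyte-like cells were 11.6% and 8.16%, and subtracting them left no Nnat UMIs there. These shares were estimated from neuron markers, and the part of free RNA in the Nnat UMIs was not tested. Without thinning the LHb-like shares were 82.5% and 79.2%. At least 5 of the 1000 UMIs were Nnat in 7.15% of foot shock and 3.96% of control LHb-like neurons, while MHb-like shares were 6.11% and 8.10%. The thinned Snrpn shares were 61.3% and 57.8% in LHb-like neurons, against 24.4% and 23.1% in oligodendrocyte-like cells, and those of Peg3 were 42.8% and 44.6%, against 6.87% and 6.25%.

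**Figure D4:**
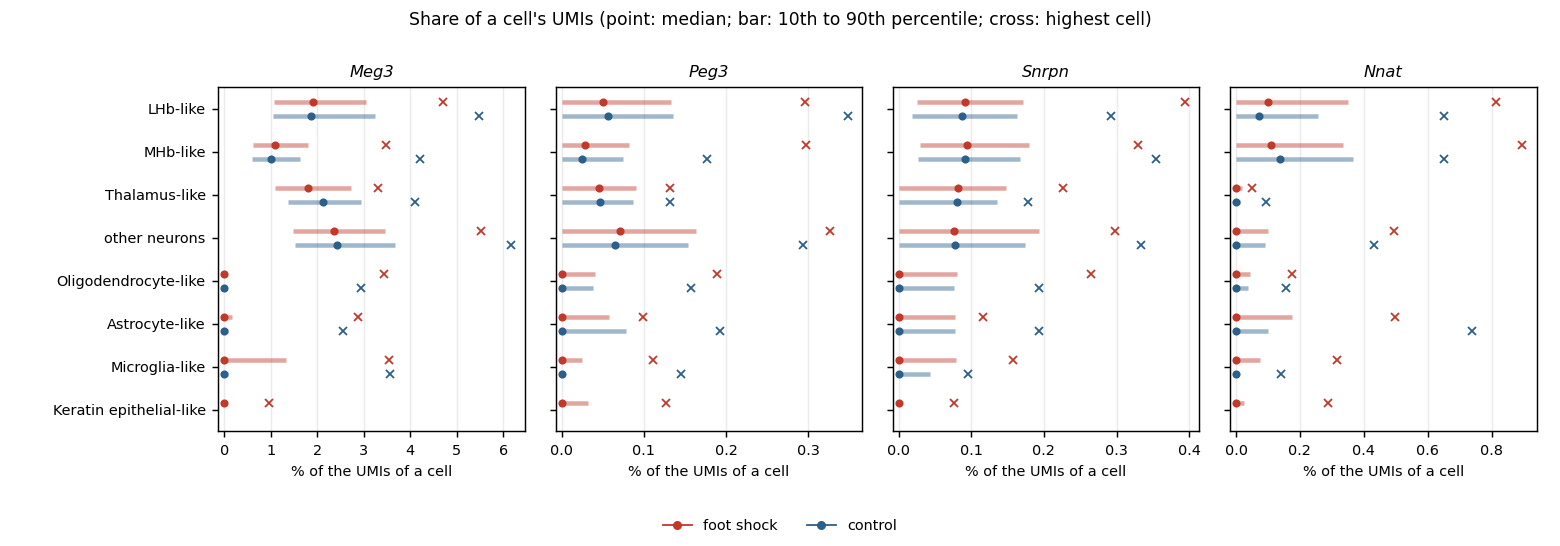
Share of a cell's UMIs, in percent, taken by Meg3, Peg3, Snrpn and Nnat in 8 classes, foot shock above control, with the median (point), the tenth to ninetieth percentile of cells (bar) and the highest cell (cross). The Meg3 median is 1.91% and 1.86% for LHb-like neurons, 1.08% and 0.999% for MHb-like neurons and 0 for oligodendrocyte-like cells.

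The comparison of foot shock with control asks which levels differed after the aversive session. In habenula neurons no member with enough UMIs differed 1.5-fold between the libraries. Of the 6 members measured in LHb-like neurons and the 5 in MHb-like neurons 0 were called, where 3.08% of 8154 genes in LHb-like and 2.25% of 8837 genes in MHb-like neurons were called in either direction. Meg3 had a ratio of 0.988 (0.978 to 0.999) in LHb-like and 1.07 (1.06 to 1.08) in MHb-like neurons. Peg3 had 0.944 (0.889 to 1.00) and 1.08 (1.01 to 1.15), Ndn 1.2 (1.09 to 1.31) and 1.06 (0.971 to 1.16), and Snrpn 1.08 (1.03 to 1.13) and 1.06 (1.02 to 1.1).

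Among members with 100 UMIs or more in the compared cells, the ratios furthest from 1 were those of Nnat and Peg10 in LHb-like neurons. Magel2 in MHb-like neurons, with 3 UMIs in foot shock and 6 in control, had 0.448 (0.0726 to 2.10). Nnat stood at 1354 CPM in foot shock and 1026 CPM in control LHb-like neurons, a ratio of 1.32 (1.26 to 1.38), and at 1335 and 1537 CPM in MHb-like neurons, a ratio of 0.868 (0.841 to 0.897). LHb subcluster 5, where Nnat was highest, made up 11.3% of foot shock LHb-like cells (85) and 6.14% of control ones (48), and held 29.8% and 20.1% of the Nnat UMIs of the class. With each of the 10 described LHb subclusters given equal weight, the Nnat ratio was 1.08 in LHb-like neurons, at 1421 and 1320.0 CPM. With equal weight for the 8 described MHb subclusters it was 0.908 in MHb-like neurons. Peg10 stood at 56.3 CPM in foot shock and 78.0 CPM in control LHb-like neurons, a ratio of 0.721 (0.594 to 0.873), and at 0.676 with equal weight.

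**Figure D5:**
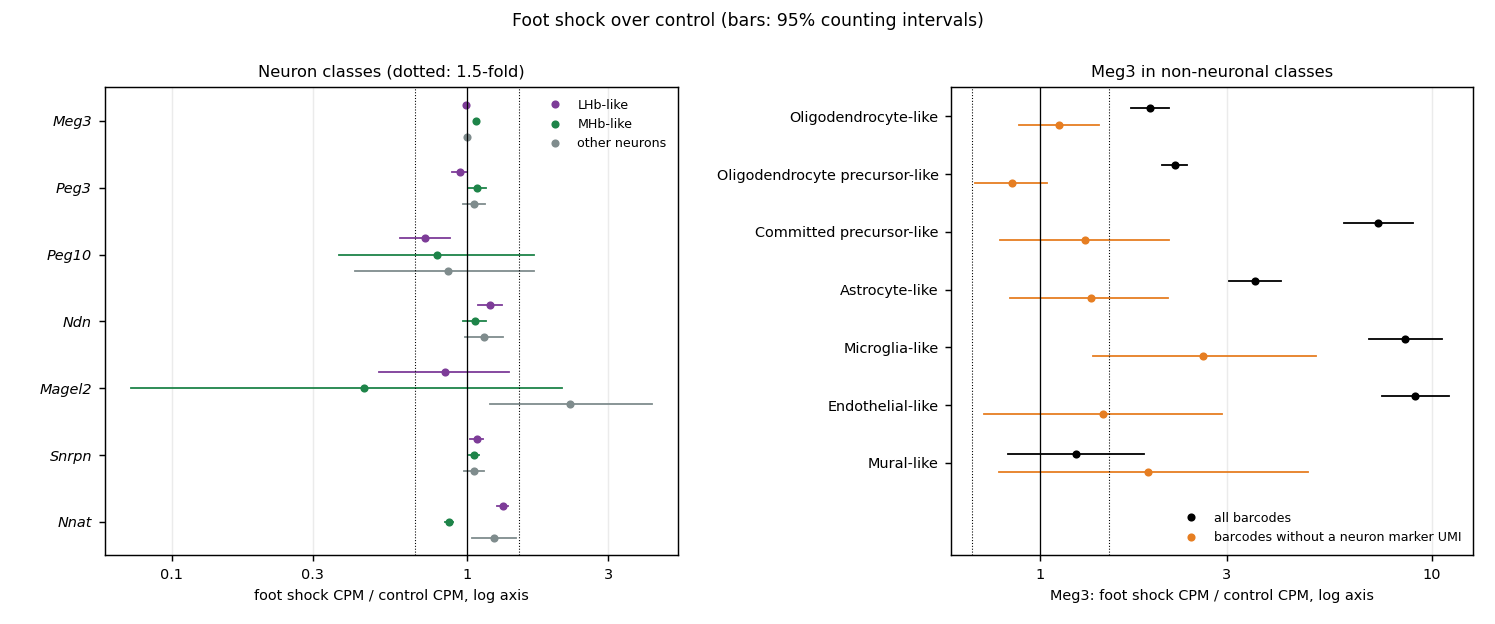
Foot shock over control ratio of CPM (log axis) with exact conditional binomial 95% intervals and dotted lines at 1.5-fold, for the 7 members in LHb-like, MHb-like and other neurons (left) and for Meg3 in glial and vascular classes (right), over all barcodes and over barcodes without a neuron marker UMI. In LHb-like and MHb-like neurons the members with enough UMIs lie between 0.721 and 1.32, while Meg3 in microglia-like cells lies at 8.55 over all barcodes and 2.61 over those without a marker UMI.

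In 5 of the 6 glial and mural classes with 50 cells in each library, Meg3 was called higher in the foot shock library. Its ratio was 8.55 (6.94 to 10.6) in microglia-like cells, at 5139 CPM in foot shock and 601 CPM in control, where 8% of 300 measured genes were called higher. It was 7.29 (5.98 to 8.96) in committed precursor-like cells (3.16% of genes called higher), 3.54 (3.04 to 4.13) in astrocyte-like cells (4.05%), 2.20 (2.04 to 2.38) in oligodendrocyte precursor-like cells (9.2%) and 1.91 (1.71 to 2.13) in oligodendrocyte-like cells (1.83%). In mural-like cells it was 1.23 (0.827 to 1.84), and 1.59% of genes were called higher there. Of the classes below the minimum of 50 cells, endothelial-like cells held Meg3 at 6873 CPM in 46 foot shock and 759 CPM in 64 control cells. Macrophage-like cells held it at 2457 CPM in 18 foot shock and 379 CPM in 12 control cells. Ependymal-like cells went the other way, at 779 CPM (656 to 917) in 38 foot shock and 1078 CPM (789 to 1438) in 15 control cells. Xist was at 54.3 CPM in foot shock endothelial-like and 534 CPM in foot shock macrophage-like cells, and at 0 CPM in control cells of both. Its bearing on their Meg3 levels was not tested. Nnat was the other member called in glia, at 1.65 (1.33 to 2.05) in astrocyte-like cells. In microglia-like cells only Meg3 reached 100 UMIs. Below that minimum, Snrpn had 4.75 (2.52 to 9.59) and Nnat 4.86 (2.44 to 10.5) there, and the intervals of the remaining members held 1. In committed precursor-like cells, also below it, Nnat had 1.81 (1.14 to 2.89) and Ndn 2.60 (1.07 to 6.74).

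The neuron markers moved with Meg3 in these classes. Their summed level was 936 CPM in foot shock and 237 CPM in control microglia-like cells, 585 and 189 CPM in committed precursor-like, 447 and 255 CPM in astrocyte-like, 1416 and 753 CPM in oligodendrocyte precursor-like and 266 and 226 CPM in oligodendrocyte-like cells. All 6 of the 6 markers had UMIs in each of these, except Rbfox3 at 0 in control microglia-like cells. The share of a class's UMIs that could be free RNA was estimated from neuron markers, so it is not independent of these sums. It was 50.3% in foot shock and 9.86% in control microglia-like cells, 36.2% and 8.23% in committed precursor-like, 24.8% and 10.3% in astrocyte-like, 88.9% and 39% in oligodendrocyte precursor-like and 11.6% and 8.16% in oligodendrocyte-like cells. Meg3 UMIs per Snap25 UMI differed between the classes. They were 15.8 (11.52 to 22.2) in foot shock and 6.12 (3.64 to 10.9) in control microglia-like cells, 16.5 and 7.06 in committed precursor-like, 10.5 and 4.51 in astrocyte-like, 18.1 and 11.3 in oligodendrocyte precursor-like and 6.27 and 3.46 in oligodendrocyte-like cells, where habenula neurons had 15.5 and 16.2 and free RNA 2.51 and 1.56. The part of neuron material or free RNA in the Meg3 ratios was not tested. After thinning, 18.6% of foot shock and 1.75% of control microglia-like cells held 5 or more Meg3 UMIs of 1000, and the median cell held none.

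Among glial barcodes without a single UMI of the 6 markers, the Meg3 ratio was 1.12 (0.882 to 1.41) in oligodendrocyte-like, 0.844 (0.681 to 1.04) in oligodendrocyte precursor-like, 1.30 (0.790 to 2.13) in committed precursor-like and 1.35 (0.834 to 2.12) in astrocyte-like cells. It was 2.61 (1.36 to 5.07) in microglia-like cells, from 23 UMIs in 44 foot shock cells and 19 UMIs in 84 control cells, and 1.89 (0.785 to 4.84) in mural-like cells. The Nnat ratio of astrocyte-like cells was 1.60 (1.21 to 2.10) in such barcodes, close to its value over all of them. In microglia-like cells Snrpn had 0.784 (0.182 to 2.65) and Nnat 2.59 (0.658 to 10.7) in such barcodes, from few UMIs. In such barcodes Meg3 still stood at 1785 CPM in foot shock and 2113 CPM in control oligodendrocyte precursor-like cells, against 130.1 and 117 CPM in oligodendrocyte-like cells. Choosing barcodes by absent UMIs favours shallow ones, and these ratios were added after the data were seen.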

How the data were processed

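Suspensions of habenula punches were sequenced with 10x 3' version 2 chemistry, per the labels, and the authors deposited unnormalized UMI counts for every barcode. Cell Ranger 2 and mm10 are named in the submitters' processing notes. The annotation and the use of strand are not given in the sources used here. Of 28692 gene identifiers, 28339 occur in GENCODE vM21.

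Cells had at least 1000 UMIs, 500 to 6000 genes and at most 20% mitochondrial UMIs. Scrublet (scanpy 1.11.5, expected rate 0.08) removed 80 foot shock (1.65%) and 242 control (4.72%) barcodes, and clusters with markers of unrelated classes, 80 and 14 cells, were left out. Both libraries were clustered together without integration (2000 variable genes without the imprinted list, 30 principal components, 15 neighbours, Leiden resolution 1). Names needed 3 markers, each held in 10% of cells, and habenula names Pou4f1 at 1 count per 10000 or more. By a rule added after the data were seen, 4 LHb-like subclusters (341 cells) below that limit joined other neurons.

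Counts were summed per class and library, scaled to CPM and given exact intervals (scipy 1.17.1). These were Clopper-Pearson for shares, Poisson for levels and conditional binomial for ratios. The Poisson and conditional binomial intervals were tested only on counts simulated with counting error. That test cannot show how they hold with spread between cells or mice. Genes needed 100 UMIs over the compared groups. A call took 2-fold against oligodendrocyte-like cells, free RNA or the subcluster median, and 1.5-fold otherwise, in both libraries except between groups. The text names the members, domain neighbours, the 5 other imprinted genes highest in habenula neurons, Snrpb, the 3 genes most like each member and leading genes. A gene that this rule names is not reported here. Plagl1 and Mest were named after their values were seen. Members and lists were chosen with earlier results of these data known.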

Additional observations from a re-analysis of the deposited data

Results flagged for a closer look

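Nnat moved in opposite directions in the 2 habenula neuron classes. Its foot shock over control ratio was 1.32 for LHb-like and 0.868 for MHb-like neurons, and the difference was not tested, since each group is 1 library. With equal weight per subcluster the ratios were 1.08 and 0.908.

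Meg3 also lay on opposite sides of 1, at 0.988 in LHb-like and 1.07 in MHb-like neurons. The difference was not tested, and the LHb-like ratio was 1.02 with the median ratio of all genes as scale and 1.06 with equal weight per subcluster.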

How the results depend on the processing

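No paired analysis was possible because each group is 1 library, which also left no replicate to leave out. Of 509 recomputed ratios, 406 stayed within the interval of the reported ratio, 99 moved further and 4 changed direction. Members called above free RNA numbered 4, but 2 when ratios were divided by the median ratio of all genes and 2 with free RNA of 10 to 50 UMIs. Members called between LHb-like and MHb-like neurons numbered 3, but 1 at a 2-fold threshold, and between foot shock and control 0, but 2 at a log2 threshold of 0.32 (Nnat and Peg10 in LHb-like neurons). With the median ratio as scale, Nnat against free RNA was 0.899 in foot shock, and Meg3 between foot shock and control in LHb-like neurons was 1.02. With equal weight per subcluster that Meg3 ratio was 1.06, and in oligodendrocyte precursor-like barcodes without a neuron marker UMI it was 0.844. The causes were not tested. Under all settings run, the Meg3 ratio of habenula neurons to glia was 8.51 to 76.2 in foot shock and 27.3 to 109 in control. That of Nnat was 2.14 to 20.5 and 3.47 to 23.9, without the setting that subtracted free RNA, which left no Nnat UMIs in oligodendrocyte-like cells for a ratio. The ends of 8.51, 2.14 and 3.47 are ratios to astrocyte-like cells, and the other ends are ratios to oligodendrocyte-like cells. The Nnat ratio of LHb-like to MHb-like neurons in foot shock was 0.867 to 1.06. The count of 6 members called against oligodendrocyte-like cells was 7, and that between the habenula classes 4, when Pou4f1-low subclusters were kept, an alternative chosen after seeing the data. Magel2 stayed too sparse in oligodendrocyte-like cells and MHb-like neurons for a firm value.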

Other observations

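Among neurons outside the habenula classes, a cluster led by Cacna2d1, Sez6 and Kcnc1 (125 foot shock and 210 control cells) held Snrpn at 390.0 CPM in foot shock and 446 CPM in control and Peg3 at 292 and 402 CPM, but Meg3 at 23240 and 26569 CPM. Its Pou4f1 level was 67.7 CPM in foot shock and 114 CPM in control, around the limit of 100 CPM, and below it over both libraries together. Its mitochondrial share was 15.7% and 12.6%, where LHb-like neurons had 5.35% and 4.96%, and its median depth was 1319 and 1446.5 UMIs. The part of these values in its low Snrpn was not tested.

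Nnat was high in ependymal-like cells, which line the ventricle, at 3404 CPM (3142 to 3682) in 38 foot shock cells and 2461 CPM (2013 to 2979) in 15 control cells. The 6 neuron markers summed to 87.1 and 93.7 CPM there, with Rbfox3 at 0 in both libraries.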
